A study of Mus musculus with 10 samples.

Results

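10 genes of the unfolded protein response were read by symbol from the deposited table of raw counts, which lists 45906 genes, and all 10 had enough reads to be tested for a difference between groups. They were divided by role. Hspa5, Hsp90b1, Pdia4, Herpud1 and Xbp1 make up the chaperone, degradation and IRE1-XBP1 side, and Atf4, Ddit3, Trib3, Asns and Chac1 the PERK-ATF4 branch. The libraries came from 5 male C57BL/6 mice injected with an AAV1/2 virus carrying human α-synuclein with the A53T change (A53T) and from 5 male C57BL/6 mice injected with the empty vector (EV). Injection was at 10 to 12 weeks of age, and RNA was taken 16 weeks later, at 26 to 28 weeks, from the immune cell fraction that a Percoll gradient separated out of digested substantia nigra and striatum. The labels do not state the promoter that drives the transgene or the cells that express it.

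The endoplasmic reticulum folds secreted and membrane proteins, and 3 membrane sensors respond when unfolded protein accumulates there. ATF6 and IRE1, the enzyme that splices Xbp1 mRNA, lead to transcription of chaperones and of the machinery that sends misfolded protein to the proteasome. PERK phosphorylates the translation factor eIF2α, which lowers general translation but favours translation of ATF4, and ATF4 in turn activates genes of amino acid supply and, under lasting stress, the cell death regulator Ddit3. α-Synuclein is a neuronal protein whose aggregates mark Parkinson disease, and microglia, the resident macrophages of the brain, take it up. Counts per gene do not separate spliced from unspliced Xbp1 mRNA and do not read translation of Atf4.

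The sequences just upstream of the transcription start are shown for the members that carry the motifs by which each branch is known. They are RefSeq windows of build GRCm38.p6, available for all 10 members, and each covers 250 bases before to 50 bases after the start. The endoplasmic reticulum stress element (ERSE), CCAAT followed after any 9 bases by CCACG, is the site named for ATF6 and XBP1, and it was present in 0.119% of the 32851 windows in the genome-wide set, both strands searched. It occurred in the windows of 2 members, Hspa5 and Hsp90b1. The 250 bases before the start are printed for these members in the gene's own direction, with the ERSE in capitals. The second match in Hsp90b1 lies on the opposite strand and so appears as its complement read backwards. The Hspa5 sequence is chr2:34771840-34772089 on the plus strand with its ERSE at position -65, and the Hsp90b1 sequence is chr10:86705445-86705694 on the minus strand with matches at positions -212 and -107.
Hspa5: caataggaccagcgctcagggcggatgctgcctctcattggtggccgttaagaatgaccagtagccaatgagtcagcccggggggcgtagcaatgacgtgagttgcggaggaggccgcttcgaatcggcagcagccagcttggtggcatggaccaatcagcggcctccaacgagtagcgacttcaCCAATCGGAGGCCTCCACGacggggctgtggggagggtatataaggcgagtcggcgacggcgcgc
Hsp90b1: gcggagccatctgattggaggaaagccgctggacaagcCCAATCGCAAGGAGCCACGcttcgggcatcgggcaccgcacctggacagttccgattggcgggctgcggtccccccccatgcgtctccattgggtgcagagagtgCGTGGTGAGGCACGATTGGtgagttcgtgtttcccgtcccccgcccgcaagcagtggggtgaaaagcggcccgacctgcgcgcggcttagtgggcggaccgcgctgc

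The C/EBP-ATF response element (CARE), searched as TGATGNAA on both strands, is the kind of site at which ATF4 binds with C/EBP partners. It was found in the windows of 4 members, Asns, Chac1, Trib3 and Herpud1, against 3.97% of all windows. 3 of these members belong to the PERK-ATF4 branch. Stretches of 100 bases around the matches that lie before the start are printed with the CARE in capitals, forward in Asns and as its complement read backwards in Chac1 and Herpud1. The Herpud1 stretch also holds, in capitals near its end, the ERSE-II motif, a compact form of the ERSE. The Asns stretch is chr6:7693210-7693309 on the minus strand with the match at -23, the Chac1 stretch chr2:119351012-119351111 on the plus strand with the match at -193, and the Herpud1 stretch chr8:94386289-94386388 on the plus strand with the CARE at -112 and the ERSE-II at -52. In Trib3 the match began at position 15 after the start, and that window is not printed.
Asns: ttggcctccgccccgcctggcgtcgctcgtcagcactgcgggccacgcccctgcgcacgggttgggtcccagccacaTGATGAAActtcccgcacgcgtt
Chac1: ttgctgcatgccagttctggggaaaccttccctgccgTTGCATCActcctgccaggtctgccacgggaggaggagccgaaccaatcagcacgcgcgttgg
Herpud1: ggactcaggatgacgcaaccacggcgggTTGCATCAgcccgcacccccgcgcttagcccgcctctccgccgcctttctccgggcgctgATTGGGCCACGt
The ERSE-II motif, ATTGG followed after any 1 base by CCACG, was found in 1 member window, that of Herpud1, against 0.0365% of all windows, and the UPRE motif TGACGTGG (0.676% of all windows) in 0 member windows. The ERSE-II letters planned at first lacked 1 base and matched 0 member windows, against 0.0761% of all windows. They were corrected after results were seen. No match of one motif overlapped a match of another in these windows. Letters that are present or missing in a window are a description of the sequence and do not show binding in these cells.

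Library totals lay between 14323389 and 20698259 counts in A53T and between 12386305 and 21780086 in EV. The transgene was read 1520, 2223, 10, 1397 and 1217 times in A53T replicates 1 to 5, and 0, 1, 0, 0 and 0 times in EV replicates 1 to 5, so that A53T replicate 3 carried almost none. The immune label was met in part: all 14 homeostatic microglia genes were detected, with a summed level of 408 to 8219 CPM (counts per 1000000 after scaling) in A53T and 466 to 3328 in EV, while 14 neuron genes summed to 477 to 6250 CPM in A53T and 2959 to 6414 in EV. The 8 astrocyte genes summed to 1253 to 12721 CPM in A53T and 4950 to 12302 in EV. A score for each of these lists, its mean log2 CPM, placed A53T replicates 4 and 3 at the microglial end, with microglia scores of 8.61 and 8.35, and A53T replicate 2 and EV replicate 1 at the other end, with 4.22 and 4.53. In such mixed samples, fewer cells of a type and less RNA per cell cannot be told apart.

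The level per transcript length, as reads per 1000 bases of exon and 1000000 counts (RPKM), had the same order in both groups. Hsp90b1, the lumenal HSP90 chaperone (also called GRP94), was the most abundant, with a median of 156 RPKM in A53T and 128 in EV, followed by Hspa5, the lumenal HSP70 chaperone BiP that also holds the sensors inactive, with 122 RPKM in A53T and 62.9 in EV. Atf4 came next with 49.3 RPKM in A53T and 32.9 in EV, then Pdia4, a protein disulfide isomerase, with 27.6 in A53T and 20.01 in EV, and Herpud1, a membrane component of the degradation machinery, with 23.2 in A53T and 14.2 in EV. Xbp1 had 13.0 RPKM in A53T and 11.01 in EV, and Ddit3, which encodes CHOP, 11.3 in A53T and 10.2 in EV. Asns, asparagine synthetase, had 2.18 RPKM in A53T and 4.31 in EV. Chac1, a glutathione-degrading enzyme, and Trib3, a pseudokinase that restrains ATF4 and AKT, were lowest, with 0.298 and 0.263 RPKM in A53T and 0.547 and 0.239 in EV. Between neighbours in this order, Hsp90b1 exceeded Hspa5, Hspa5 exceeded Atf4, Ddit3 exceeded Asns and Asns exceeded Chac1 in 10 of 10 libraries. Atf4 exceeded Pdia4 in 9 libraries, Herpud1 exceeded Xbp1 in 9 and Pdia4 exceeded Herpud1 in 8. Xbp1 exceeded Ddit3 in 6 libraries. Chac1 exceeded Trib3 in 6, with both tied at 0 reads in EV replicates 1 and 3. Whether the genes of these pairs differ in level was not tested.

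The question of the design is how brain immune cells differ when human A53T α-synuclein is delivered. No member passed the test of that difference. Among the chaperones, Herpud1 and Xbp1, the SD within A53T was larger than the difference between the group means for each gene. Averages of these genes and of Atf4 and Ddit3 were higher in A53T than in EV, that of Asns was lower, and Trib3 and Chac1 were barely detected. Hspa5 (chromosome 2, 34772090 to 34776529) was at 319, 112, 415, 449 and 125 CPM in A53T replicates 1 to 5, and at 124, 164, 161, 220 and 286 CPM in EV replicates 1 to 5. A53T replicates 1, 3 and 4 lay above every EV library, A53T replicate 2 lay below all of them, and the groups overlapped. The mean was 284 ± 158 CPM in A53T and 191 ± 63.0 in EV (SD, n = 5 each), a fitted log2 fold change of 0.57 ± 0.42 (SE, edgeR adjusted p = 0.957).

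Hsp90b1 (chromosome 10, 86690841 to 86705444) had the same arrangement. It was at 432, 257, 538, 616 and 281 CPM in A53T replicates 1 to 5, and at 308, 285, 354, 357 and 373 CPM in EV replicates 1 to 5. Again A53T replicates 1, 3 and 4 were above every EV library, and A53T replicates 2 and 5 were below all of them. The log2 fold change was 0.34 ± 0.29 (SE, edgeR adjusted p = 0.957).

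Pdia4 (chromosome 6, 47796141 to 47813512) was at 73.2, 38.2, 83.2, 98.2 and 43.7 CPM in A53T replicates 1 to 5, and at 53.1, 42.9, 44.0, 74.4 and 72.2 CPM in EV replicates 1 to 5, with a log2 fold change of 0.23 ± 0.29 (SE, edgeR adjusted p = 0.957). Herpud1 (chromosome 8, 94386429 to 94395371) spread most on this side of the response. It was at 45.3, 14.6, 79.8, 100.4 and 12.4 CPM in A53T replicates 1 to 5, and at 17.4, 27.8, 21.9, 31.9 and 46.0 CPM in EV replicates 1 to 5, and the highest library held 8.07 times the level of the lowest. Its fitted log2 fold change, 0.80 ± 0.54 (SE, edgeR adjusted p = 0.957), was the highest of the 10 members.

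Xbp1 (chromosome 11, 5520641 to 5525993) was at 29.3, 16.7, 37.4, 41.3 and 14.0 CPM in A53T replicates 1 to 5, and at 21.5, 29.4, 21.2, 24.7 and 27.6 CPM in EV replicates 1 to 5. Here the EV libraries stayed within a narrow band, 24.9 ± 3.63 CPM, while A53T libraries lay on both sides of it, at 27.7 ± 12.1 CPM (SD, n = 5 each). The log2 fold change was 0.16 ± 0.30 (SE, edgeR adjusted p = 0.957), and -0.030 without A53T replicate 4.

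**Figure D1:**
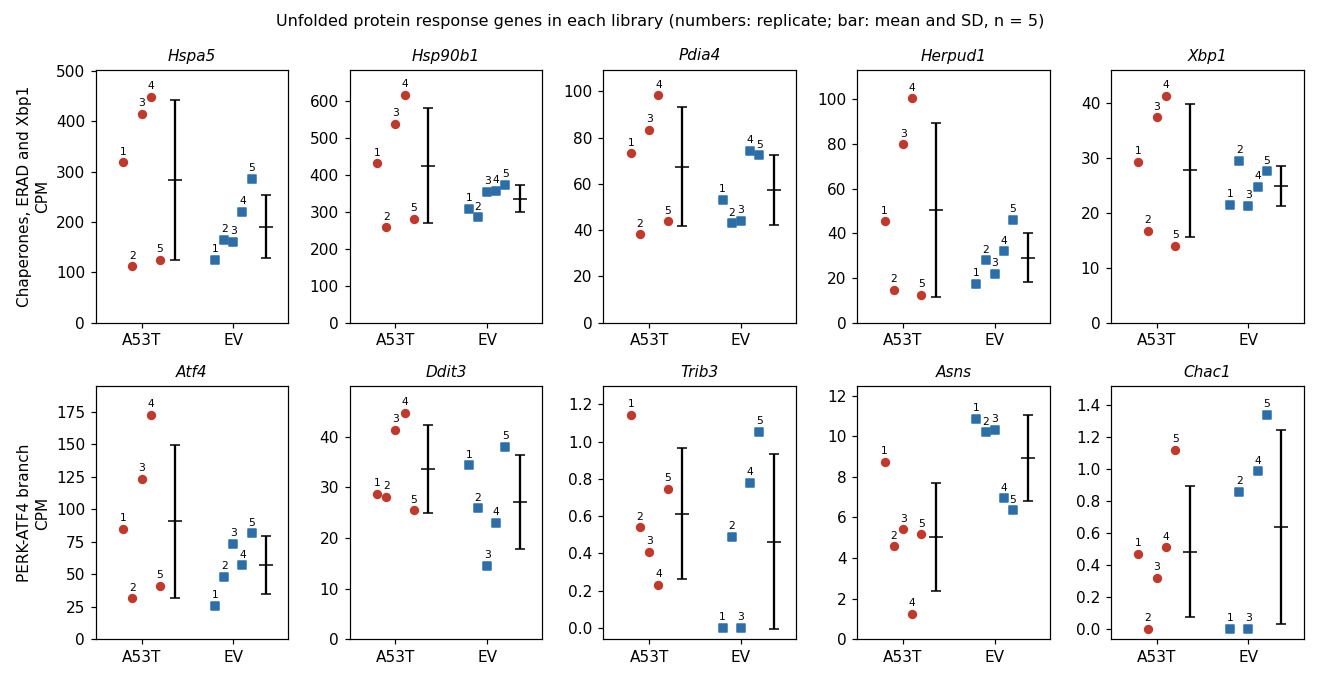
CPM of the 10 members in each library, A53T left (red circles) and EV right (blue squares), with the replicate number above each point and the mean and SD (n = 5) as a black bar. In Hspa5, Hsp90b1 and Atf4 the A53T libraries 1, 3 and 4 stand above every EV library, and in Asns all A53T libraries but replicate 1 stand below every EV library.

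In the PERK-ATF4 branch the members did not share a single arrangement. Atf4 (chromosome 15, 80255184 to 80257545) resembled the chaperones. It was at 85.2, 31.6, 124, 173 and 41.2 CPM in A53T replicates 1 to 5, and at 25.9, 48.2, 73.6, 56.8 and 81.6 CPM in EV replicates 1 to 5, with A53T replicates 1, 3 and 4 above every EV library. The log2 fold change was 0.67 ± 0.46 (SE, edgeR adjusted p = 0.957).

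Ddit3 (chromosome 10, 127290793 to 127296291) varied less than Atf4. It was at 28.8, 28.1, 41.3, 44.7 and 25.5 CPM in A53T replicates 1 to 5, and at 34.4, 25.9, 14.5, 23.0 and 38.0 CPM in EV replicates 1 to 5. Its highest library held 3.09 times the level of its lowest, against 6.68 times for Atf4, and the log2 fold change was 0.31 ± 0.27 (SE, edgeR adjusted p = 0.957). The ratio of Ddit3 to Atf4 CPM within a library was lowest at 0.259 in A53T (replicate 4) and at 0.197 in EV (replicate 3), and highest at 0.891 in A53T (replicate 2) and at 1.33 in EV (replicate 1).

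Asns (chromosome 6, 7675165 to 7693209) pointed the other way. It was at 8.72, 4.58, 5.42, 1.25 and 5.16 CPM in A53T replicates 1 to 5, and at 10.9, 10.2, 10.3, 6.95 and 6.36 CPM in EV replicates 1 to 5. All A53T libraries but replicate 1 lay below the lowest EV library, and the lowest of all, A53T replicate 4, was the library with the most Atf4. The log2 fold change was -0.83 ± 0.42 (SE, edgeR unadjusted p = 0.0734, adjusted p = 0.957 over all genes). A 2-sided exact permutation test on the log2 CPM of this gene alone gave p = 0.0397 with no adjustment. That was the smallest of 10 such tests run on the members, the next being 0.294 for Ddit3. The same test was also run on 72 other genes of the pathway. The log2 fold change of Asns was -0.58 when A53T replicate 4 was left out.

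Trib3 and Chac1 were close to the limit of detection. Trib3 (chromosome 2, 152337425 to 152344060) had 22, 8, 9, 5 and 12 reads in A53T replicates 1 to 5, and 0, 8, 0, 15 and 22 reads in EV replicates 1 to 5. Chac1 (chromosome 2, 119351242 to 119354326) had 9, 0, 7, 11 and 18 reads in A53T replicates 1 to 5, and 0, 14, 0, 19 and 28 reads in EV replicates 1 to 5. In EV replicates 1 and 3 both genes were at 0 reads, which still allows 3 reads, or 0.208 and 0.238 CPM in those libraries. The log2 fold changes were 0.37 ± 1.01 for Trib3 and -0.42 ± 1.17 for Chac1 (SE, edgeR adjusted p = 0.964 each), so a difference in either direction was not detectable at this depth.

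The edgeR quasi-likelihood test, adjusted by Benjamini and Hochberg over 17409 genes, called 0 of the 10 members, where it called 0% of all genes. The smallest adjusted p over all genes was 0.105 in that fit, and the transgene was not called either. A lack of calls therefore does not show that the members were unchanged. With no adjustment, 0 members had a p under 0.05, against 2.17% of all genes. The groups did not overlap for 0 members, against 0.431% of all genes. All 5 members of the chaperone and Xbp1 side had a fitted fold change above 0, with a median of 0.34 on the log2 scale. In the PERK-ATF4 branch 3 of 5 members did, with a median of 0.31, while 52.8% of all genes did, with a median of 0.027. All 14 homeostatic microglia genes were also above 0, with a median of 1.20. Of the 14 neuron genes and the 8 astrocyte genes 0 were, with medians of -0.48 and -0.30. The part of cell content in the member directions was not tested. The PERK-ATF4 median moved when single libraries were left out, through Trib3, which was close to the limit of detection. It was 0.020 without A53T replicate 1, 0.020 without EV replicate 1 and 0.027 without EV replicate 3, each time the value of Trib3 itself. Where Trib3 was not tested, the median over 4 members was -0.26 without A53T replicate 5 and 0.25 without EV replicate 5. Without A53T replicate 5, Atf4 was at 0.79, Ddit3 at 0.34 and Asns at -0.87. DESeq2 called 2 genes, neither of them a member.

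A53T replicates 3 and 4 each exceeded every EV library in 7 of the 10 members, all but Asns, Trib3 and Chac1. A53T replicate 1 did so in 4, Hspa5, Hsp90b1, Atf4 and Trib3, the last at only 22 reads, as many as in EV replicate 5. A53T replicates 2 and 5 did so in 0. A53T replicate 2 was below every EV library in 6 members and A53T replicate 5 in 4. These positions were counted for the members alone. The share of all genes in the same positions was not computed, so they are not shown to be particular to the members. When A53T replicates 3 and 4 were both left out, the log2 fold change was -0.044 for Hspa5, -0.051 for Hsp90b1, -0.15 for Pdia4, -0.27 for Herpud1, -0.31 for Xbp1 and -0.12 for Atf4, while that of Ddit3 was 0.016 and that of Asns -0.53. A53T replicate 3, with 10 transgene reads, was the second highest of the 10 libraries for Hspa5, Hsp90b1, Pdia4, Herpud1, Xbp1 and Atf4, each time after A53T replicate 4. Without that replicate alone the log2 fold change was 0.39 for Hspa5, 0.24 for Hsp90b1, 0.14 for Pdia4, 0.57 for Herpud1, 0.025 for Xbp1, 0.53 for Atf4, 0.23 for Ddit3, 0.48 for Trib3, -0.86 for Asns and -0.30 for Chac1.

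**Figure D2:**
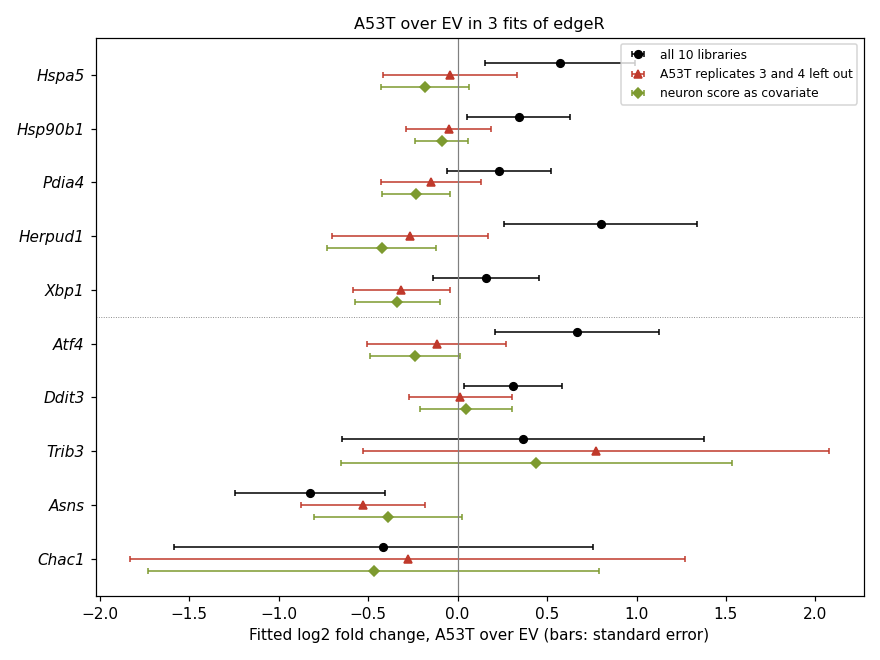
Fitted log2 fold change of each member, A53T over EV, with its standard error, from all 10 libraries (black), with A53T replicates 3 and 4 left out (red) and with the neuron score as a covariate (green). Hspa5, Hsp90b1, Pdia4, Herpud1, Xbp1 and Atf4 are above 0 in the first fit and below 0 in the other two, and Asns is below 0 in all 3.

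The levels of 6 members, Hspa5, Hsp90b1, Pdia4, Herpud1, Xbp1 and Atf4, passed a correlation test with each of 3 scores of cell content, whereas Ddit3, Trib3 and Chac1 passed with none and Asns with 1. 30 relations were computed, those of each member's log2 CPM with the microglia, the neuron and the astrocyte score over the 10 libraries. Of these, 19 passed at a permutation p adjusted over the 30 relations. The same tests were not run on other genes. The share of all genes that would pass is therefore not known, and these counts are not shown to be particular to the members. Nor are the 3 scores separate measures. A53T replicate 4 had the highest microglia score (8.61) and the lowest neuron and astrocyte scores (4.35 and 5.98). A53T replicate 2 had the lowest microglia score (4.22) and the highest astrocyte score (8.24), with a neuron score of 7.09. Passing with each of 3 scores is therefore not 3 independent results. Hspa5 followed the microglia score closely (Pearson r = 0.96, permutation p = 1.1e-04, adjusted p = 0.00072; Spearman correlation 0.98, permutation p = 8.0e-05, adjusted p = 0.00172). After subtracting group means the value was 0.95 (permutation p = 5.0e-05), and without A53T replicates 2 and 4, farthest from the median score, it was 0.93. Hspa5 also went against the neuron score (r = -0.88, adjusted permutation p = 0.00072; Spearman correlation -0.85, adjusted permutation p = 0.0071; r = -0.84 without A53T replicates 3 and 4). With the microglia score as a covariate, added after the data were seen, the log2 fold change of A53T over EV was 0.025 ± 0.17 for Hspa5, 0.065 ± 0.17 for Hsp90b1 and 0.022 ± 0.24 for Atf4 (SE), and -0.67 ± 0.43 for Asns.

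For the other chaperone-side genes the relation to the microglia score was r = 0.88 for Hsp90b1, 0.89 for Pdia4 and 0.92 for Herpud1 (permutation p = 0.00097, 0.00104 and 0.00035, adjusted p = 0.00208, 0.00208 and 0.00105). Their Spearman correlations were 0.89, 0.83 and 0.93 (adjusted permutation p = 0.0034, 0.00861 and 0.0021), and without A53T replicates 2 and 4 r was 0.79, 0.79 and 0.87. Xbp1 had r = 0.81 (permutation p = 0.00464, adjusted p = 0.0087; Spearman correlation 0.83, adjusted permutation p = 0.00861), and 0.67 without those libraries. Its relation to the neuron score (r = -0.74, permutation p = 0.0117, adjusted p = 0.0194; Spearman correlation -0.56, adjusted permutation p = 0.146) was -0.38 without A53T replicates 3 and 4 and rests on them. With the astrocyte score Xbp1 had r = -0.77 (permutation p = 0.00884, adjusted p = 0.0156), and -0.58 without A53T replicates 2 and 4. After subtracting group means, the adjusted permutation p of Xbp1 was 0.0238 with the microglia score. It was 0.0706 with the neuron score and 0.0706 with the astrocyte score, past the threshold for neither.

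Within the PERK-ATF4 branch, only Atf4 passed with the microglia score (r = 0.91, permutation p = 0.00046, adjusted p = 0.00125; Spearman correlation 0.90, adjusted permutation p = 0.0034; r = 0.85 without A53T replicates 2 and 4). Its relation to the astrocyte score was r = -0.96 (permutation p = 4.0e-05, adjusted p = 0.0004; Spearman correlation -0.94, adjusted permutation p = 0.00172; r = -0.93 without A53T replicates 2 and 4). Ddit3 had r = 0.53 with the microglia score (permutation p = 0.116, adjusted p = 0.151; Spearman correlation 0.61, adjusted permutation p = 0.112), Trib3 0.38 (permutation p = 0.28, adjusted p = 0.323) and Chac1 0.62 (permutation p = 0.0631, adjusted p = 0.0901), and without A53T replicates 2 and 4 r was 0.47, 0.70 and 0.55. The Spearman correlations of Trib3 and Chac1 were 0.24 and 0.48 (adjusted permutation p = 0.546 and 0.22). Asns had r = -0.52 with the microglia score (permutation p = 0.121, adjusted p = 0.151) and 0.79 with the neuron score (permutation p = 0.0208, adjusted p = 0.0328; Spearman correlation 0.49, adjusted permutation p = 0.22), the second of which was 0.11 without A53T replicates 3 and 4 and rests on them. Whether the correlations of Atf4 and Ddit3 differ was not tested. Member levels and scores are shares of the same library total, so part of each relation is built in, which the permutations leave out of account.

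**Figure D3:**
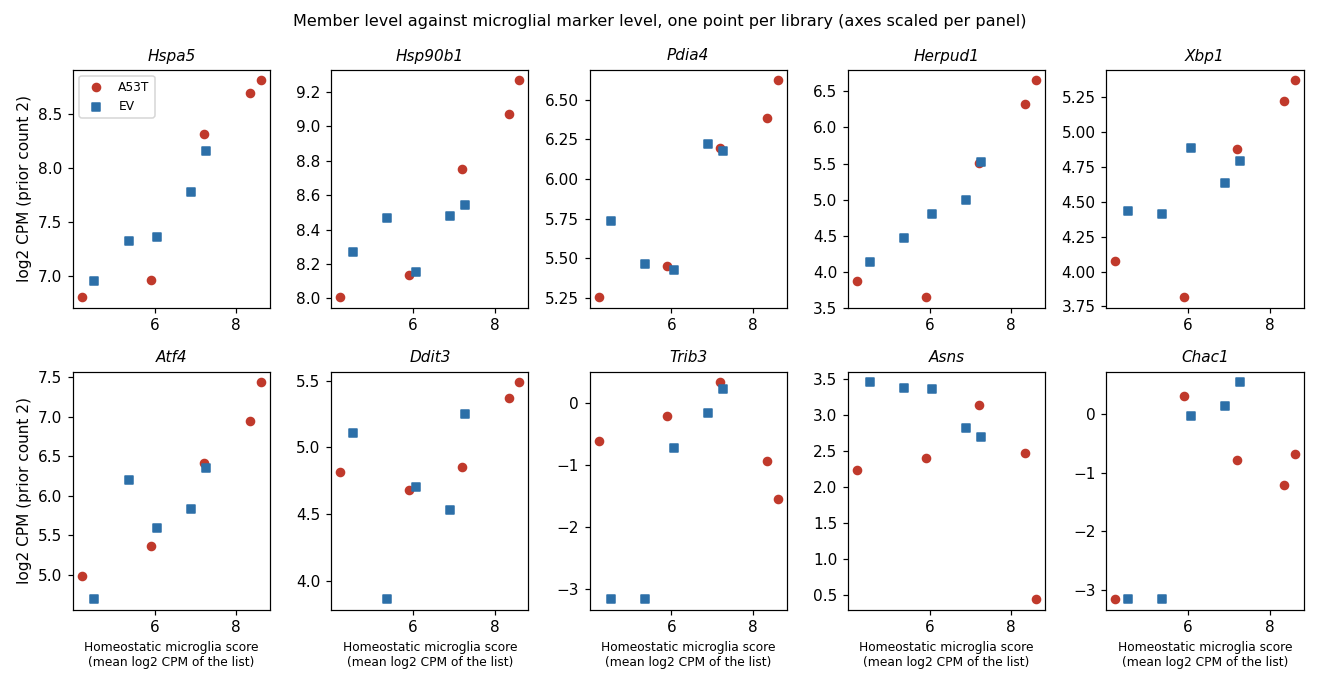
Log2 CPM of each member (prior count 2, axes scaled per panel) against the homeostatic microglia score, the mean log2 CPM of 14 marker genes, with 1 point per library, A53T as red circles and EV as blue squares. The points of Hspa5, Herpud1 and Atf4 climb with the score in both groups (r = 0.96, 0.92 and 0.91), those of Ddit3 are scattered, and the lowest Asns point is the A53T library with the highest score.

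Genes of other kinds lay closer to these profiles than other members did. Of 9332 named genes averaging 3 or more on the log2 CPM scale, the profiles nearest to that of Hspa5 over the 10 libraries were those of Blnk, Bin2 and Nfkbib (Pearson r = 0.993, 0.991 and 0.991, as a description). Herpud1 came 37th (r = 0.98), Hsp90b1 was at rank 395, Atf4 at rank 509, Pdia4 at rank 592, Xbp1 at rank 917 and Ddit3 at rank 2926. The profiles nearest to that of Atf4 were those of Stat6, Sptlc2 and St3gal6 (r = 0.991, 0.988 and 0.988), with Hspa5 at rank 285 and Ddit3 at rank 3747 (r = 0.35).

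Markers of secretory cells, which are rich in chaperones, were also read beside these values. The 13 salivary gland genes summed to 63.8, 377, 9.80, 7.03 and 4.23 CPM in A53T replicates 1 to 5, and to 155, 266, 368, 9.96 and 5.78 CPM in EV replicates 1 to 5, with Prol1 at 0 everywhere. Their part in the member values was not tested. The 6 plasma cell genes summed to 11.1 to 102 CPM in A53T and 16.4 to 37.4 CPM in EV. They were highest in A53T replicates 4 and 3, at 102 and 83.7 CPM, and their part in the member values was not tested. The 14 genes of dissociation stress summed to 884 to 10490 CPM in A53T and 953 to 4509 CPM in EV, again with A53T replicates 4 and 3 highest by score (9.13 and 8.82). Their part in the member values was not tested either. Oligodendrocyte genes summed to 4150 to 6418 CPM in A53T and 5006 to 5861 in EV, endothelial genes to 231 to 511 CPM in A53T and 243 to 724 in EV, and choroid plexus genes to 2.697 to 428 CPM in A53T and 6.42 to 72.8 in EV.

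The wider pathway was read from 7 lists of 72 other genes, of which 70 were tested. edgeR called 0 of them after adjustment, and 1, Sec61a1, had an unadjusted p under 0.05. 58 had a fitted fold change above 0 and 12 below, where 52.8% of all genes were above. When A53T replicates 3 and 4 were both left out, list medians were 0.11 for sensors, -0.033 for chaperones and folding enzymes and -0.031 for degradation. They were -0.030 for eIF2α genes, -0.0068 for amino acid and stress genes, -0.0089 for serine synthesis and -0.011 for tRNA synthetases. The part of cell content in these directions was not tested. With all 10 libraries, the median log2 fold change of the 5 sensor genes was 0.30. Eif2ak3, which encodes PERK, was at 29.0 ± 10.7 CPM in A53T and 19.0 ± 4.54 in EV, and Ern1, which encodes IRE1α, at 17.6 ± 7.88 CPM in A53T and 11.2 ± 3.72 in EV (SD, n = 5 each). Their log2 fold changes were 0.61 ± 0.28 and 0.66 ± 0.36 (SE, edgeR adjusted p = 0.957 each), whereas that of Atf6 was 0.016 ± 0.18.

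Of 16 further chaperones and folding enzymes, 15 had a fold change above 0, with a median of 0.32. The lectin chaperone gene Canx was at 316 ± 43.1 CPM in A53T and 255 ± 45.3 in EV, and the disulfide isomerase gene Pdia3 at 149 ± 75.7 CPM in A53T and 97.5 ± 24.0 in EV (SD, n = 5 each). For degradation and translocation the median over 12 genes was 0.24. It included Sec61a1, the pore of the translocon, at 29.0 ± 9.24 CPM in A53T and 19.8 ± 3.11 in EV (log2 fold change 0.55 ± 0.24, SE, edgeR unadjusted p = 0.038, adjusted p = 0.957), and Edem1, a mannosidase-like factor that hands misfolded glycoproteins to degradation, at 104 ± 74.5 CPM in A53T and 53.6 ± 28.1 in EV (SD, n = 5 each).

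The 7 genes of eIF2α phosphorylation and its reversal had a median of 0.24, led by Ppp1r15a, the stress-induced phosphatase subunit GADD34, at 277 ± 245 CPM in A53T and 116 ± 64.0 in EV. Ppp1r15b, its constitutive counterpart, was at 57.6 ± 19.8 CPM in A53T and 46.2 ± 10.6 in EV (SD, n = 5 each). ATF4 target genes were split by function. Stress and amino acid transport genes had a median of 0.11 over 13 tested members (0.33 with limma-voom, and 0.012 to 0.24 when 1 library was left out). Over 15 genes, the 2 untested ones included, the median was 0.34 with DESeq2 and 0.38 with no filter. The transcription factor gene Cebpb was at 61.4 ± 57.1 CPM in A53T and 21.2 ± 14.9 in EV and the related Atf5 at 5.11 ± 1.72 CPM in A53T and 7.85 ± 1.70 in EV (SD, n = 5 each). The 2 untested members were Slc7a3, with 97 reads in A53T and 17 in EV, and Stc2, with 34 reads in A53T and 7 in EV.

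Serine synthesis and one-carbon genes had a median of -0.12 over 5 members, which was 0.017 without A53T replicate 4. Mthfd2, a mitochondrial folate enzyme, was at 7.74 ± 5.24 CPM in A53T and 3.29 ± 3.16 in EV, and Shmt2, the mitochondrial serine hydroxymethyltransferase, at 10.2 ± 3.27 CPM in A53T and 12.5 ± 4.78 in EV (SD, n = 5 each). The 12 aminoacyl-tRNA synthetase genes had a median of 0.22, with Nars at 60.7 ± 16.4 CPM in A53T and 45.7 ± 9.08 in EV and Lars at 34.9 ± 5.75 CPM in A53T and 28.4 ± 4.46 in EV (SD, n = 5 each). None of the genes named in these lists passed the edgeR threshold over all genes, each with an adjusted p of 0.957 or above.

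**Figure D4:**
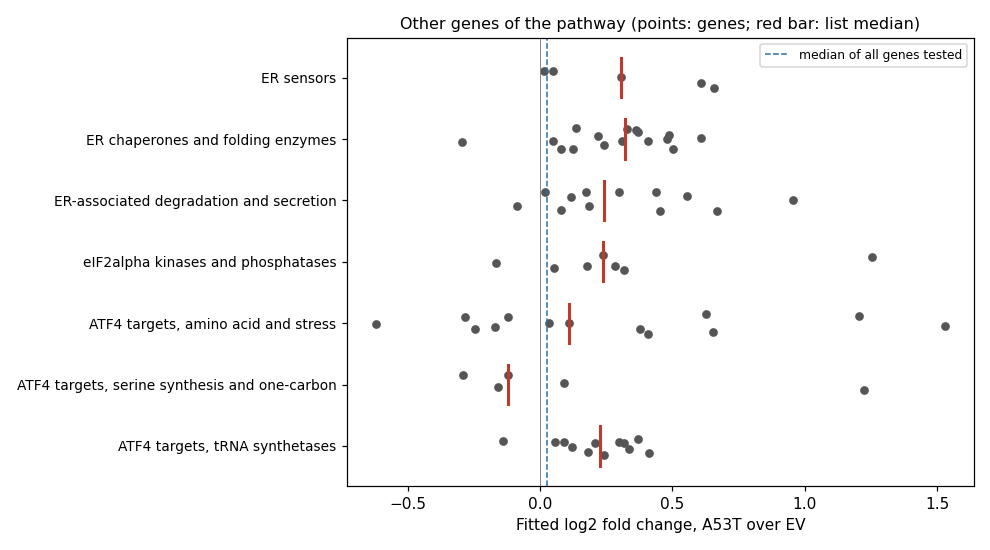
Fitted log2 fold change, A53T over EV, of the 70 tested genes in 7 further lists of the pathway (grey points, 1 per gene, vertical position within a list arbitrary), with each list's median (red bar) and the median of all 17409 genes (blue dashed line, 0.027). 6 list medians lie between 0.11 and 0.32, and that of serine synthesis and one-carbon genes is -0.12.

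Some reads could belong to neighbours. Hspa5 overlaps 1921 bases of the span of Rabepk on the opposite strand, and Ddit3 overlaps the ends of Mbd6 (77 bases) and Mars (71 bases), also on the opposite strand. The strand setting of the counting is not stated in the labels or files, and reads of these genes cannot be told apart from those of their antisense partners.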

How the data were processed

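RNA of the immune cell fraction was sequenced in 5 A53T and 5 EV libraries. The authors deposited raw read counts per gene, not normalized, with gene spans and summed exon lengths, and a second table of log2 values, the regularized logarithm of those counts. Each library started from 0.5 ng of RNA and went through 5 and then 15 PCR cycles in a stranded kit, per the labels' protocols. Tools listed without roles in the submitters' processing notes are STAR 2.7.2b, cutadapt 2.5, DESeq2 1.24.0 and featureCounts 1.6.4, beside GRCm38.p6 and mm10 as builds.

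Counts were fitted with edgeR 4.0.16 in R 4.3.3 (quasi-likelihood F test, robust, TMM normalization, default filter on low counts), which kept 17409 of 45906 genes, with Benjamini-Hochberg adjustment at 0.05. CPM are counts per TMM-scaled library, RPKM the same per 1000 bases of exon. Log2 CPM carry a prior count of 2. Correlations used 100000 permutations, exact tests all 252 assignments of the libraries. The labels give replicate numbers no shared litter, batch or day, and same-numbered libraries did not deviate together (correlations from -0.367 to 0.309). A gene at 0 allows 3 reads, 0.137 to 0.238 CPM, for counting error only, since reads carry no molecular identifiers. The fits were tested on simulated data. A planned search of protein ends was not run. The ERSE-II letters planned for the search lacked 1 base of the motif and were corrected after results were seen.

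All 10 members are named, and from each pathway list the 2 tested genes of smallest p. Atf6, the untested genes and those named as nearest profiles beyond the first 3 were added after their values were seen. Members, lists and tests were chosen with earlier results of these data known. Alternatives were DESeq2 1.42.0, limma 3.58.1 with voom weights or on the log2 values, other size factors and filters, the replicate block, score covariates and leaving out libraries.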

Additional observations from a re-analysis of the deposited data

How the results depend on the processing

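The number of genes called was 0 with limma-voom, limma on the rlog values, RLE size factors, no filter and the stricter filter. It was 2 with DESeq2 (aSyn and B430306N03Rik), 1 (aSyn, the transgene) with the replicate block, 1 with the neuron score as covariate, 1 with the microglia score as covariate and 1 without A53T replicates 3 and 4 together, and from 0 to 1 when 1 library was left out. No member was called under any of these settings. With the replicate block Chac1 turned to 0.15 on the log2 scale, and the replicate block changed no call of a member. With the neuron score as covariate the log2 fold changes turned to -0.18 for Hspa5, -0.090 for Hsp90b1, -0.23 for Pdia4, -0.43 for Herpud1, -0.34 for Xbp1 and -0.24 for Atf4, and list medians moved to -0.23 for the chaperone and Xbp1 members, -0.24 for the PERK-ATF4 members, -0.055 for chaperones and folding enzymes, -0.045 for degradation, -0.059 for eIF2α genes, -0.018 for tRNA synthetases and 0.048 for serine synthesis. With the microglia score as covariate, an alternative chosen after seeing the data, they turned to -0.079 for Pdia4, -0.045 for Herpud1 and -0.18 for Xbp1, with medians of -0.045 for the chaperone and Xbp1 members and -0.026 for eIF2α genes. Both scores are measured from the same libraries as the members, so part of a member's own variation is removed with them. Without A53T replicates 3 and 4 together the values turned to -0.044 for Hspa5, -0.051 for Hsp90b1, -0.15 for Pdia4, -0.27 for Herpud1, -0.31 for Xbp1 and -0.12 for Atf4, and medians to -0.15 for the chaperone and Xbp1 members, -0.12 for the PERK-ATF4 members, -0.033 for chaperones and folding enzymes, -0.031 for degradation, -0.030 for eIF2α genes, -0.0068 for amino acid and stress genes and -0.011 for tRNA synthetases. Asns, Ddit3 and Trib3 kept their direction in every setting in which they were tested, but not their size. Ddit3 was at 0.016 without A53T replicates 3 and 4 together, 0.048 with the neuron score and 0.11 without EV replicate 3, Trib3 at 0.020 without EV replicate 1 and Asns at -0.35 with limma-voom and -0.39 with the neuron score. Leaving out 1 library at a time gave -0.030 to 0.27 for Xbp1 and -1.02 to 0.041 for Chac1. The same gave r between 0.32 and 0.86 for Asns with the neuron score, -0.72 and -0.17 for Asns with the microglia score, 0.14 and 0.78 for Asns with the astrocyte score, -0.87 and -0.63 for Xbp1 with the neuron score, -0.86 and -0.66 for Xbp1 with the astrocyte score, -0.77 and -0.44 for Ddit3 with the neuron score, -0.26 and 0.16 for Trib3 with the neuron score and -0.26 and 0.20 for Trib3 with the astrocyte score. A prior count of 0.5 changed no call or direction of a correlation. Trib3 and Chac1 were not tested under the stricter filter, and Trib3 was not tested without A53T replicate 5 or without EV replicate 5. The causes of these shifts were not tested.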
